A study of Mus musculus with 12 samples.

Results

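Mouse induced pluripotent stem (iPS) cells made with Oct4 and Tet1 were set against the R1 line of embryonic stem (ES) cells. The comparison used the 3 arrays titled as the iPS cell line and the 3 titled as R1 ES cells, 6 of the 12 arrays of the series. The iPS arrays are repeats of 1 line, OT#b, at passage 10, with the OG2-GFP/Rosa26-M2rtTA background, which carries a GFP reporter of Oct4 and a transactivator that responds to doxycycline. The labels list no doxycycline for these arrays. The ES cells were of strain 129 at passage 20. Both lines grew with LIF and serum on mouse embryonic fibroblast feeders whose division was stopped with mitomycin C. A step in which feeders settle out of the suspension before RNA extraction is worded in the labels for ES cells and not for iPS cells. Strain, passage, line and that step differ together, so their parts in any difference cannot be told apart. The other 6 arrays, 3 of fibroblasts and 3 of fibroblasts from mice made with such iPS cells after 1 day of doxycycline, all at passage 3 and on an OG2-GFP background, entered the estimate of the spread, and the fibroblasts give a reference level. The labels write the transactivator of the 3 fibroblast arrays as M2rtTA, M3rtTA and M4rtTA. Whether the 3 arrays of a line are separate cultures is not stated, and if they are not, the p-values cover technical spread alone.

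Mouse ES cells are held in a self-renewing state by a network of transcription factors around Oct4 (Pou5f1), Sox2 and Nanog, with LIF acting for self-renewal and FGF signalling through ERK acting for exit towards lineages. Reprogramming installs the same network in a body cell, and it has to shut the expression program of the starting cell and reset DNA methylation. Tet1 oxidises methylated cytosine and is itself abundant in ES cells. Genes of the germline, imprinted genes and genes of the cleavage-stage embryo are groups whose levels differ between pluripotent lines, and fibroblast transcripts can come from feeders as well as from the line itself.

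Values are log2 levels per probe set. A gene was called when its difference, iPS minus ES, was at least 1 on the log2 scale, which is 2-fold, with a limma adjusted p under 0.05 over 9539 genes. Without the fold minimum 5502 genes (57.7%) passed. With it 658 genes were called (6.9% of those tested), 424 higher in iPS cells (4.44%) and 234 lower (2.45%). The median difference was 1.33 among genes called higher, -1.26 among those called lower and 0.01 over all genes. Of the genes called, 54 were higher and 21 were lower by at least 2 on the log2 scale. At the other end, 8294 genes (86.9%) had a 95% confidence interval of the difference that lay within 2-fold. With arrays centred on a common median the split was 330 higher and 312 lower, so the share of higher calls was 51.4% in place of 64.4%.

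Across genes, which are not independent replicates, arrays correlated with r = 0.994 within the iPS cells, 0.988 to 0.993 within the ES cells and 0.941 to 0.949 between the lines. Both lines had the defining markers of pluripotent cells: the summed linear level of 8 markers was 30877 to 31434 in iPS arrays, 34039 to 35628 in ES arrays and 279 to 345 in fibroblasts. The ES array of replicate 2 stood apart from the other two in fibroblast transcripts. For 12 fibroblast and feeder markers the summed level was 4641 on it, against 3319 and 3350 on the other ES arrays, 11701 to 12250 on the iPS arrays and 36866 to 43518 on the fibroblast arrays. The counts of matrix, contractile and other fibroblast list members called higher are therefore given with and without that array.

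**Figure D1:**
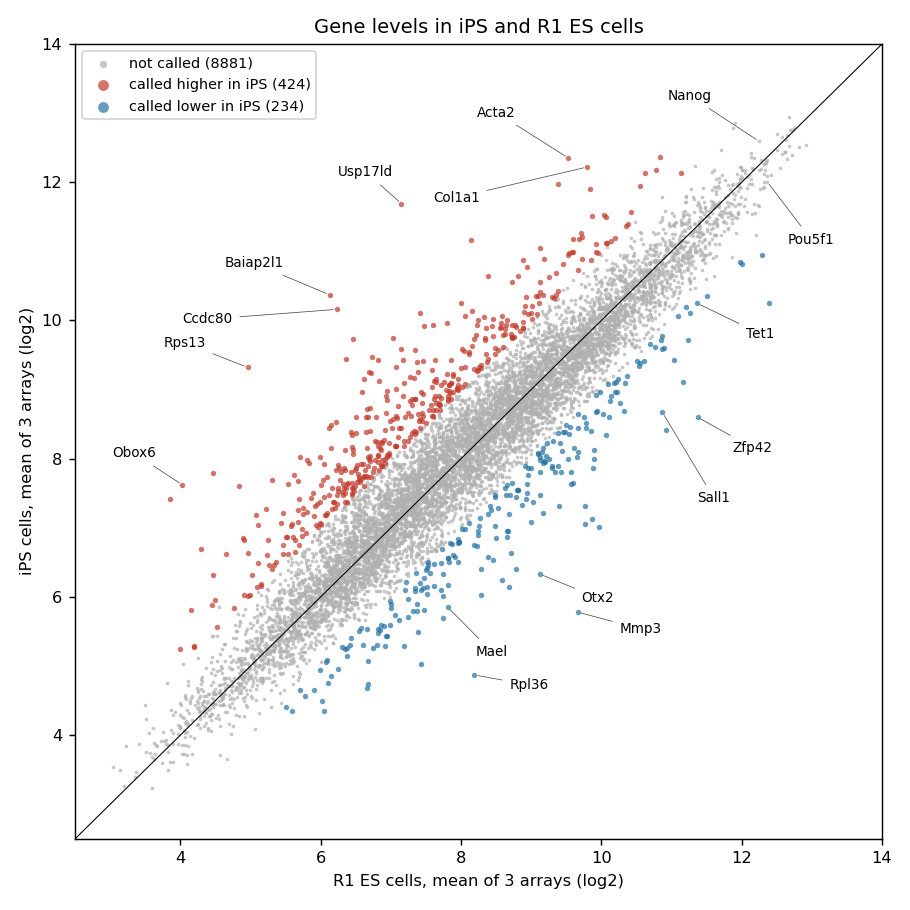
Mean log2 level of each of the 9539 genes over 3 iPS arrays (vertical axis) and 3 R1 ES arrays (horizontal axis), with the line of equality. Red points are the 424 genes called higher and blue points the 234 genes called lower in iPS cells, while Pou5f1 and Nanog lie near the line.

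Among the reprogramming factors, the core network lay within 2-fold in the 2 lines while Tet1 and Myc were lower in iPS cells. Pou5f1 had log2 levels of 12.01, 12.04 and 11.96 on the iPS arrays and 12.36, 12.37 and 12.36 on the ES arrays. The groups did not overlap, as was so for 61.5% of all genes, and the difference of -0.36 ± 0.08 (SE) was under the fold minimum. Nanog, which stabilises the pluripotent state, differed by 0.34 ± 0.10, and Sox2, the partner of Oct4 on DNA, by -0.40 ± 0.17. Klf4, a LIF-dependent factor, differed by -0.47 ± 0.10. Whether these probe sets read an introduced copy was not tested. Tet1 measured 10.27, 10.17 and 10.33 in iPS cells and 11.38, 11.26 and 11.45 in ES cells. It fell by 1.11 on the log2 scale, 2.15-fold lower, with every iPS array under every ES array (limma adjusted p = 5.0e-07). Myc, a growth regulator, fell by 1.26 ± 0.13, and its relative Mycn fell by 1.53 ± 0.11.

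Of 38 measured genes of the pluripotency network, 5 were lower (13.2%, beside 2.45% of all genes), 3 were higher (7.89%, beside 4.44%) and 30 were not called, with a list median of -0.29 beside 0.01 for all genes. For 24 of the 38 the 95% interval lay within 2-fold, beside 8294 of all 9539 genes (86.9%). Zfp42, known as Rex1 and a classic marker of the undifferentiated state, measured 8.42, 8.82 and 8.56 in iPS cells and 11.10, 11.57 and 11.46 in ES cells. Every iPS array was below every ES array, and every one was also above the fibroblast mean of 4.46. The difference was -2.77 ± 0.16 (adjusted p = 4.6e-08), or 6.83-fold. Sall1, a zinc-finger factor bound to pluripotency genes, fell by 2.20 ± 0.08, and Eras, a Ras-like gene of ES cells, fell by 1.34 ± 0.12. The 3 higher genes were Nodal (1.09), Ooep (1.01) and Tfcp2l1 (1.01), and all 3 lost their call when arrays were centred on a common median. Among genes not called, Utf1 (-0.96) and Nr5a2 (-0.95) were closest to the lower limit and Tcl1 (0.84) to the upper.

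Zfp42 was not alone at its place in the genome. In the order of the RefSeq gene table, the consecutive measured genes Triml1, Triml2, Zfp42 and Fat1 were all lower in iPS cells. Triml2, a tripartite-motif gene expressed in early embryos, measured 8.52, 8.75 and 8.81 against 10.24, 10.33 and 10.39. Its difference was -1.62 ± 0.21, that of Triml1 -1.13 ± 0.15, and that of Fat1, a giant cadherin, -1.11 ± 0.08. Fat1 differs from its neighbours in that its fibroblast level (10.85) was near its ES level.

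Genes that mark FGF signalling and the step towards the epiblast were the next group on the lower side. Otx2, the homeobox factor that drives the move from the naive to the formative state, measured 6.33, 6.15 and 6.51 in iPS cells and 9.45, 8.62 and 9.28 in ES cells. The groups lay more than 2 log2 units apart, and the difference was -2.79 ± 0.17 (6.91-fold; adjusted p = 6.3e-08). Fgf15, a growth factor of the epiblast, fell by 2.33 ± 0.16, and Car2, a carbonic anhydrase, fell by 2.74 ± 0.17. Of 13 measured primed and early lineage factors 4 were lower (30.8%, beside 2.45% of all genes), with Tcf15 (-1.08) as the fourth. In the same list 2 were higher (15.4%, beside 4.44%), Nodal and its antagonist Lefty2 (1.81 ± 0.23). The median of that list was -0.55.

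In the list of FGF signalling and its feedback, 6 of 20 genes were lower (30%, beside 2.45% of all genes), 1 was higher and the median was -0.49. Spry4, an inhibitor that FGF signalling induces against itself, measured 9.16, 8.99 and 9.19 in iPS cells and 11.20, 11.38 and 10.94 in ES cells. All 3 iPS arrays were below the ES arrays, at a level near the fibroblast mean of 8.70. It fell by 2.06 ± 0.11 (adjusted p = 1.8e-08). The related inhibitors Spred2 (-1.45 ± 0.09) and Spred1 (-1.24 ± 0.07) were lower, as were the ETS factors Etv1 (-1.34 ± 0.14) and Etv4 (-1.17 ± 0.09), transcriptional outputs of the pathway. Egr1, an immediate-early gene of ERK and of serum response factor, went the other way, at 1.33 ± 0.07. The ligand Fgf4 (0.29) and the receptors Fgfr1 (0.03) and Fgfr2 (-0.58) were not called. Among 15 genes of the LIF pathway, the receptor Lifr fell by 1.30 ± 0.14, while Osmr (1.13), Tfcp2l1 and the STAT3 target Pim1 (2.83-fold) were higher. The shares were 6.67% lower and 20% higher, beside 2.45% and 4.44% of all genes. Id2, a target of BMP signalling, was higher by 1.98 ± 0.09, and Id4 by 1.12. They were the 2 calls among 16 genes of the BMP pathway (12.5% higher, beside 4.44% of all genes).

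Several germline genes that are kept silent in body cells by promoter methylation were lower in iPS cells than in ES cells. Of 26 measured genes, 8 were lower (30.8%, beside 2.45% of all genes), 1 was higher and 17 were not called, with 21 of 26 differences below 0 and a median of -0.58. Mael, which acts in transposon silencing in germ cells, measured 5.82, 5.86 and 5.87 in iPS cells and 7.73, 7.97 and 7.71 in ES cells. Stag3, a cohesin subunit of meiosis, measured 7.31, 7.19 and 7.17 against 9.11, 9.34 and 9.06. For both, the iPS arrays agreed among themselves to within 0.2 and lay between fibroblasts (3.79 and 5.85) and ES cells. The differences were -1.96 ± 0.10 and -1.94 ± 0.14.

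The other genes called lower are parts of the meiotic and piRNA machinery. Sycp3 and Syce1, proteins of the synaptonemal complex that holds paired chromosomes, differed by -1.74 ± 0.13 and -1.60 ± 0.15. Meioc, which sustains meiotic prophase, fell by 1.66 ± 0.14, and Tex11, a meiotic recombination factor on the X chromosome, fell by 1.44 ± 0.23. Mov10l1, the helicase of piRNA production, fell by 1.32 ± 0.14, and Taf7l, a germ cell form of a general transcription factor subunit, fell by 1.35 ± 0.18. Tex15, a silencing factor of male germ cells, was the exception: it measured 7.80, 7.66 and 8.13 in iPS cells and 6.27, 6.09 and 6.43 in ES cells, with a difference of 1.60 ± 0.13. Dazl (-0.17), Ddx4 (-0.55) and Sycp1 (-0.20) were not called.

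The germline genes are dim on these arrays. All 8 genes called lower belong to the dimmest 25% of the table by mean level, in which 3.82% of 2385 genes were called lower and 3.1% higher. Against fibroblasts, whose arrays are shared by both comparisons, 21 of the 26 were at least 2-fold higher in iPS cells and 25 in ES cells by the same rule. The share of all genes that passed this rule against fibroblasts was not computed, so these counts have no background beside them. The median differences from fibroblasts were 1.79 and 2.58.

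The promoters of the 3 germline genes with the largest fall that have an entry are printed because a shared sequence element recurs in the list. RefSeq sequences of build GRCm38.p6 were used, as the 250 bases before the annotated start, 5′ to 3′ on the strand of the gene, and capitals mark CACGTG, the palindromic E-box that dimers of MAX bind, which reads alike on both strands. Mael lies on the minus strand at chr1:166238745-166238994, Stag3 on the plus strand at chr5:138280259-138280508 and Sycp3 on the plus strand at chr10:88459337-88459586.
Mael: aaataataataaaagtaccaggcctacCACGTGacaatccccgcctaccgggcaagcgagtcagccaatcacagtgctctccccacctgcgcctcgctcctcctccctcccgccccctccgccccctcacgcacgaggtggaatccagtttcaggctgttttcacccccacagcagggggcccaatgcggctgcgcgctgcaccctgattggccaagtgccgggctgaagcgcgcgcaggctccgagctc
Stag3: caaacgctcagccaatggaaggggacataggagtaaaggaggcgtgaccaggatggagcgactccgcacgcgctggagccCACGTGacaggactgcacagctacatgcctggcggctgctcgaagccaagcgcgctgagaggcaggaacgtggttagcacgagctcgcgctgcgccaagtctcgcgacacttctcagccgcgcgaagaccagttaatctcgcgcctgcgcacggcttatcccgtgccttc
Sycp3: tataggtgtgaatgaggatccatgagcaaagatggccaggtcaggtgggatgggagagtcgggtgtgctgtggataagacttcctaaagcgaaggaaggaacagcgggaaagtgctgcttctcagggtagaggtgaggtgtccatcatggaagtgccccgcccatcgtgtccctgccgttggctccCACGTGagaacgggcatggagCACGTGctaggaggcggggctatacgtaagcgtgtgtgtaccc
Mael and Stag3 hold the element once in these windows and Sycp3 holds it 2 times. The windows contain 18, 26 and 12 CpG dinucleotides.

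Of 25 promoters of 22 measured germline genes, 12 held CACGTG (48%). The share was 8.11% of 9641 promoters of genes tested and 6.02% of all 32851 promoters in the table. Within the list it was found in 5 of 7 promoters of genes called lower, those of Taf7l and Mov10l1 included. It was also in 7 of 18 promoters of the others, among them Ddx4, Hormad1 and Sycp1. Hormad1 and Stk31 have overlapping windows that are counted separately. Counted by gene, the element was in 5 of 7 genes called lower and 5 of 15 others. By gene the share was 45.5% of the list and 9.84% of genes tested. Over all genes the element did not go with the direction of the call, being present in 8.02% of promoters of genes called lower and 8.55% of those called higher. Germline promoters had a median of 18 CpG dinucleotides, against 15 for genes tested and 7 for the fibroblast matrix list, where 0 of 37 promoters held the element. These matches are descriptions of sequence, and the methylation of these promoters was not measured here.

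Among genes of the oocyte and the cleavage-stage embryo, calls were mainly in the other direction. Of 11 measured genes 4 were higher (36.4%, beside 4.44% of all genes) and 1 was lower in iPS cells (9.09%, beside 2.45%), with a median of 0.54. Obox6, a homeobox gene of the early embryo, measured 7.66, 7.58 and 7.62 in iPS cells and 4.30, 4.20 and 3.60 in ES cells. Nlrp4f, of an oocyte family of NLR proteins, measured 7.23, 7.47 and 7.58 against 3.70, 4.05 and 3.79. In both cases the ES arrays were at the fibroblast level (3.81 and 3.54), and the table has no detection calls to say whether that is above background. The differences were 3.59 ± 0.18 and 3.58 ± 0.10 on the log2 scale, and no fold is given for that reason. Pramel7, a gene of the inner cell mass and of ground-state ES cells, was higher by 1.91 ± 0.13 and Usp17lc by 1.01, a call that was lost under 5 of the alternative settings besides limma's treat. Usp26 was lower, by 1.62 ± 0.15. Usp17ld, a deubiquitinase gene of the same family as Usp17lc, had the largest difference of all named genes, 4.54 ± 0.18 (23.32-fold), with 11.56, 11.68 and 11.83 in iPS cells and 6.79, 7.61 and 7.06 in ES cells. Usp17l and Pramel genes have near-identical copies, so which copy these probe sets read is uncertain.

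**Figure D2:**
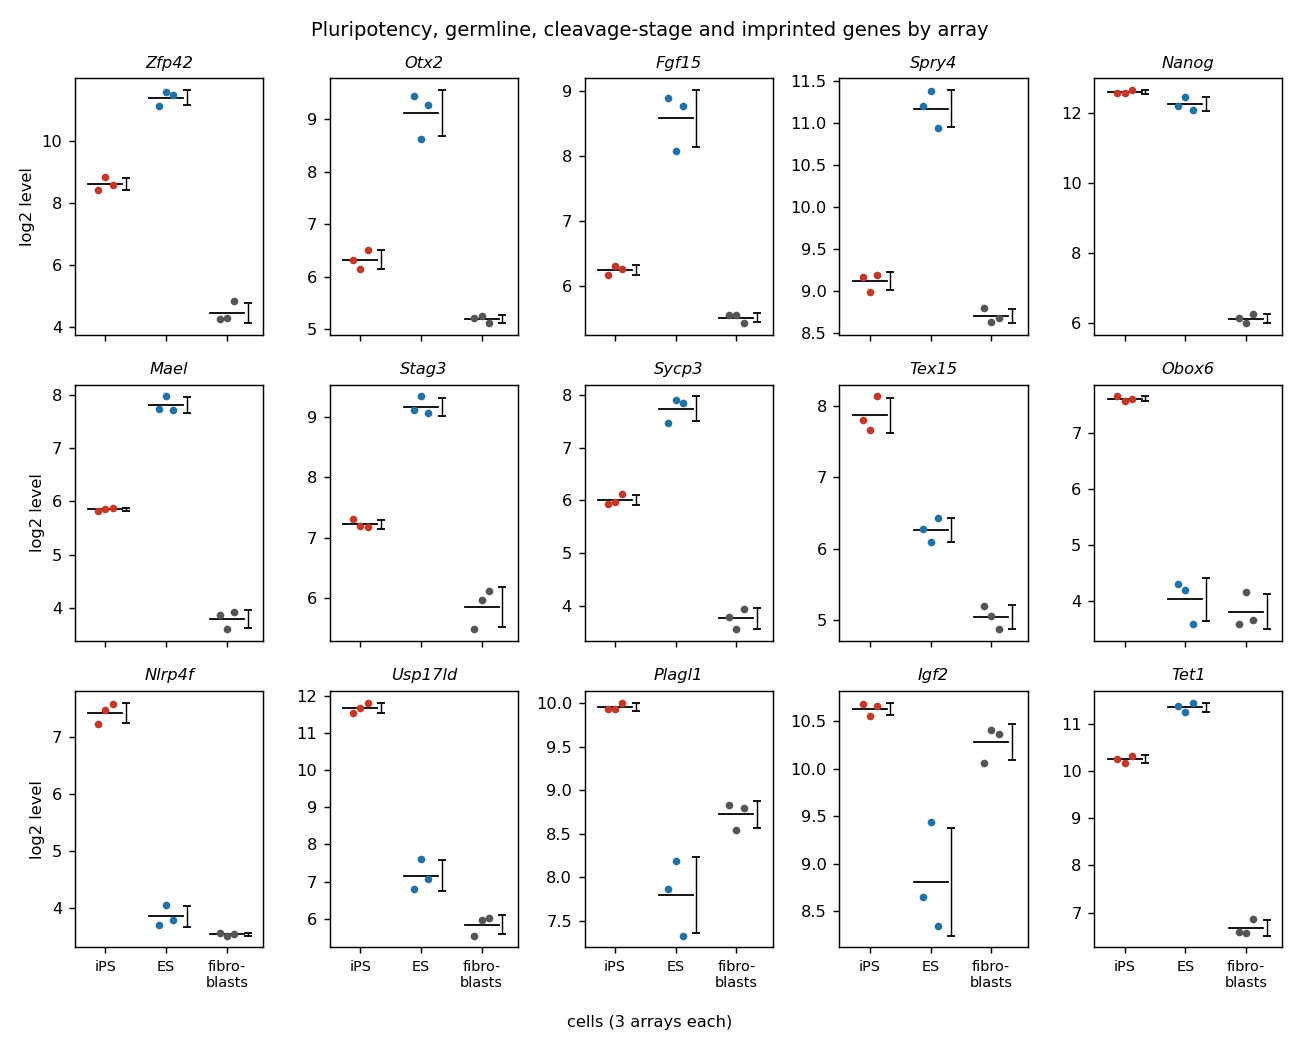
Log2 level of 15 genes on each array (points), with the mean (horizontal line) and SD (bar at the right) of 3 arrays, in iPS cells (red), R1 ES cells (blue) and fibroblasts (grey); each panel has its own axis range. Zfp42, Otx2, Fgf15, Spry4 and the germline genes Mael, Stag3 and Sycp3 are lower in iPS than in ES cells, and Tex15, Obox6, Nlrp4f, Usp17ld, Plagl1 and Igf2 are higher.

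Imprinted genes, which are expressed from 1 parental copy, moved in both directions. Of 32 measured, 3 were higher (9.38%, beside 4.44% of all genes), 2 were lower (6.25%, beside 2.45%) and the median was -0.26. Plagl1, a zinc-finger regulator of embryonic growth, measured 9.93, 9.94 and 10.01 in iPS cells and 7.87, 8.19 and 7.33 in ES cells. The growth factor Igf2 measured 10.68, 10.56 and 10.66 against 8.65, 9.44 and 8.34. Both were higher on every iPS array and more even among iPS than among ES arrays, with differences of 2.16 ± 0.16 and 1.83 ± 0.21. Ddc, the enzyme that makes dopamine and serotonin, was higher by 1.19 ± 0.11. Phlda2, a restraint on placental growth, differed by -1.09 ± 0.10 and Nnat by -1.07 ± 0.11. Fibroblasts had Plagl1 at 8.72 and Igf2 at 10.28, so for Igf2 the iPS level was close to that of fibroblasts.

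Genes that write, read or remove DNA methylation were called in both directions. Of 24 measured genes 2 were lower (8.33%, beside 2.45% of all genes) and 3 were higher (12.5%, beside 4.44%). The lower genes were Tet1 and the DNA damage gene Gadd45a (-1.14 ± 0.13). The Gadd45a relatives Gadd45g (1.26) and Gadd45b (1.09) and the deaminase gene Apobec2 (1.00) were higher, and Gadd45b and Apobec2 lost their calls when arrays were centred. The methyltransferases Dnmt3a (-0.96), Dnmt3b (-0.65), Dnmt1 (-0.35) and their cofactor Dnmt3l (-0.08) were not called, nor was Tet2 (-0.89). Of 27 Polycomb genes 1 was lower (3.7%, near the 2.45% of all genes), Jarid2, which guides the PRC2 complex (-1.13 ± 0.08). Of 30 histone methylation enzymes 2 were lower (6.67%, beside 2.45%), Prmt8 (-1.36) and Kmt2a (-1.01). In both lists 0 were called higher, beside 4.44% of all genes.

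Most microRNA genes had a lower value in iPS cells, and 15 passed the test. This grouping by name was made after the values were seen. Of 106 measured microRNA genes, 15 were lower (14.2%, beside 2.45% of all genes), 1 was higher and 81 of 106 differences were below 0, with a median of -0.34. Outside the 4 clusters described next 3 of 70 were lower (4.29%), with a median of -0.15. The table does not say whether these probe sets read the primary transcript, the hairpin or a mature product. The levels were low, with a median of 5.76 over the 12 arrays against 8.16 for all genes, and 81 of the 106 lay in the dimmest 25% of the table, where 17.3% of them were called lower against 3.82% of all its genes. After quantile normalization 23 microRNA genes were called lower, and without the dimmest 25% 1 was.

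The mature sequences of the clusters that stood out are shown because several of the lower genes share a seed, the bases 2 to 8 through which a microRNA pairs with its targets. They are RefSeq sequences of build GRCm38.p6, 5′ to 3′, with the seed in capitals, and those of all 16 called microRNA genes were matched by symbol.
miR-17-5p: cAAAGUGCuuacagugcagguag
miR-20a-5p: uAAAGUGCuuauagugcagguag
miR-106a-5p: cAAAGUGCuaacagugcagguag
miR-18a-5p: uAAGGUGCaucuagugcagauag
miR-19a-3p: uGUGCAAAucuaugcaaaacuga
miR-19b-3p: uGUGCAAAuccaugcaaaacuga
miR-363-3p: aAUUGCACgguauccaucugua
The first 3 share the seed AAAGUGC, and miR-19a-3p and miR-19b-3p share GUGCAAA.

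All 5 measured genes of the Mir17 to Mir19b-1 cluster, a proliferation-linked cluster processed from a single transcript, were lower, and so was the host transcript Mir17hg (-1.04 ± 0.18). They were consecutive in the gene table and made the longest of 6 such runs. Mir17 measured 5.86, 6.15 and 6.09 in iPS cells and 7.63, 7.53 and 7.38 in ES cells, without overlap, a difference of -1.48 ± 0.11 (adjusted p = 2.9e-07). Mir18 differed by -1.66 ± 0.26, Mir19a by -1.32 ± 0.14, Mir20a by -1.25 ± 0.14 and Mir19b-1 by -1.14 ± 0.17, a call that ended without ES replicate 2. In the related cluster on the X chromosome Mir363 (-1.54 ± 0.16) and Mir106a (-1.24 ± 0.12) were lower, while Mir19b-2 (-0.44) and Mir92-2 (-0.11) were not called. In the third such cluster Mir106b (-0.96), Mir93 (-0.50) and Mir25 (-0.07) were not called. By seed, 3 of 5 measured genes with AAAGUGC and 2 of 3 with GUGCAAA were lower, against 1 of 4 with AUUGCAC, and all 12 differences were below 0.

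Between Dlk1 and Dio3 lies an imprinted region whose silencing has been used to grade iPS lines. Of its 24 microRNA genes 5 were lower (20.8%, beside 2.45% of all genes and 3.82% of the dimmest 25%). All 24 differences were below 0, with a median of -0.85. Mir300 measured 5.05, 5.27 and 5.55 in iPS cells and 7.20, 6.92 and 7.44 in ES cells, a difference of -1.89 ± 0.17. Mir487b (-1.46), Mir380 (-1.27), Mir679 (-1.11) and Mir543 (-1.10) were the others. The count was 9 with centred arrays, 11 after quantile normalization and 8 without iPS replicate 3, but 1 without the dimmest 25% of genes and 1 under limma's treat. The long transcripts of the same region were not called: Meg3 measured 10.38, 10.29 and 10.40 in iPS cells and 10.51, 10.18 and 10.58 in ES cells, and its difference was -0.07 ± 0.10, with overlapping groups. Rian differed by -0.31, Dlk1 by -0.33 and Dio3 by 0.91. The let-7 genes, which oppose the stem cell state, had a median of 0.02 and 0 of 7 limma calls. Of the 7, 2 had an adjusted p under 0.05, beside 57.7% of all genes. Mir199a-1 was the microRNA gene called higher (1.16 ± 0.10).

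**Figure D3:**
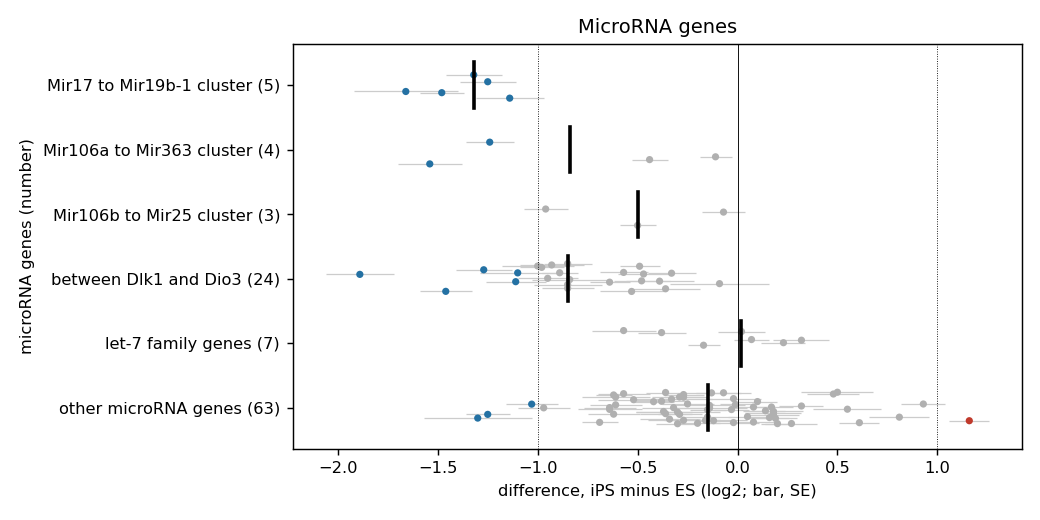
Difference, iPS minus ES, on the log2 scale for 106 microRNA genes in 6 groups; each point is a gene with its SE, the black bar is the median of the group, blue is called lower and red is called higher. All 5 genes of the Mir17 to Mir19b-1 cluster are called lower, and all 24 genes between Dlk1 and Dio3 lie below 0.

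The largest block of genes called higher in iPS cells encodes extracellular matrix. Of 48 measured fibroblast matrix genes, 24 were higher (50%, beside 4.44% of all genes), 1 was lower and 44 of 48 differences were above 0, with a median of 1.02. Without ES replicate 2 the count was 27. Col1a1, a chain of type I collagen, measured 12.22, 12.18 and 12.27 in iPS cells and 9.45, 10.26 and 9.69 in ES cells. Col1a2, the other chain, measured 11.98 ± 0.02 (SD, n = 3) against 9.38 ± 0.31. The iPS arrays were even and far above the ES arrays. Replicate 2 was the highest of the ES arrays for 23 of the 24 genes, beside 3994 of all 9539 genes. The differences were 2.42 ± 0.15 and 2.60 ± 0.12, or 5.37-fold and 6.05-fold.

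Other matrix genes called higher spanned the steps of fibre assembly. Lox, which cross-links collagen, measured 11.23, 11.10 and 11.18 in iPS cells and 7.63, 9.06 and 7.73 in ES cells, a difference of 3.03 ± 0.27. Among small leucine-rich proteins, Aspn was higher by 3.32 ± 0.26 and Ogn by 2.77 ± 0.11, whereas Dcn of the same family was lower. Postn, a matricellular protein, was higher by 2.74 ± 0.24, the fibril-associated collagen Col12a1 by 2.69 ± 0.13, the elastic-fibre protein Fbln5 by 2.54 ± 0.11 and Serpinh1, the collagen chaperone, by 1.85. Col3a1 (1.55 ± 0.16) and Col5a2 (2.44 ± 0.12), neighbours in the genome, formed a run with Gulp1 (1.01). Ccdc80, a secreted matrix-associated protein outside the list, had 10.16 ± 0.05 (SD, n = 3) in iPS cells and 6.23 ± 0.53 in ES cells, a difference of 3.93 ± 0.18.

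Contractile genes were the second such block. Of 32 measured, 15 were higher (46.9%, beside 4.44% of all genes) and 0 were lower by limma, with a median of 0.82. Without ES replicate 2 the count was 16. An unadjusted p under 0.05 in either direction was reached by 27 of 32, beside 57.7% of all genes at an adjusted p under 0.05. Acta2, smooth muscle actin and the hallmark of myofibroblasts, measured 12.38, 12.30 and 12.36 in iPS cells and 9.10, 10.22 and 9.26 in ES cells. The 2 groups lay more than 2 log2 units apart on every array, and the difference was 2.82 ± 0.20. Actg2 was higher by 3.08 ± 0.16, the actin-binding Cnn1 by 2.56 ± 0.17 and Tagln by 2.26 ± 0.22, and the myosin light chain Myl9 by 2.45 ± 0.12. Of 28 targets of YAP and serum response factor, 8 were higher (28.6%, beside 4.44% of all genes) and 0 lower (beside 2.45%). The count of higher genes was 9 without ES replicate 2. Ankrd1 (2.32 ± 0.29), Ccn2 (2.05 ± 0.13) and the clotting initiator F3 (1.97) led them. Egr1 of the FGF list and Axl of the fibroblast identity list are among the 8. Of the 28, 22 had an unadjusted p under 0.05, beside 57.7% of all genes at an adjusted p under 0.05. Of 19 genes of TGF-beta signalling, Tgfb3 (2.01 ± 0.20), Tgfb2 (1.53) and Tgfbi (1.16) were higher (15.8%, beside 4.44% of all genes). Tgfb1 (-1.17 ± 0.08) and Inhbb (-1.07) were lower (10.5%, beside 2.45%). Without ES replicate 2 that list had 5 genes higher.

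Fibroblast identity genes leaned the same way, but not all fibroblast genes did. Of 35 fibroblast identity genes 9 were higher (25.7%, beside 4.44% of all genes), or 10 without ES replicate 2. In that list 1 was lower (2.86%, beside 2.45%), 24 of 35 differences were above 0 and the median was 0.46. Among the higher genes were Anxa3 (2.72 ± 0.18), Cav1 (2.04), Anxa1 (1.83), Axl and Cd44 (both 1.55). The lower gene was Gli1, an output of Hedgehog signalling (-1.42 ± 0.10). Dcn, a defining proteoglycan of fibroblasts, measured 7.32, 7.12 and 7.48 in iPS cells and 9.42, 9.48 and 9.26 in ES cells, a difference of -2.08 ± 0.12. Mmp3, a matrix-degrading protease, had the largest fall of all genes called: 5.78 ± 0.22 (SD, n = 3) against 9.66 ± 0.07, a difference of -3.87 ± 0.15 or 14.66-fold. Both were far higher in fibroblasts, at 12.92 and 12.18. Twist2, a mesenchymal transcription factor, had 7.13, 7.10 and 7.34 in iPS cells and 7.07, 7.40 and 7.14 in ES cells, with overlapping groups and a difference of -0.01 ± 0.10. Thy1 (0.42), Prrx1 (0.92), Pdgfra (-0.78), Pdgfrb (0.73) and Lum (-0.58) were not called.

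**Figure D4:**
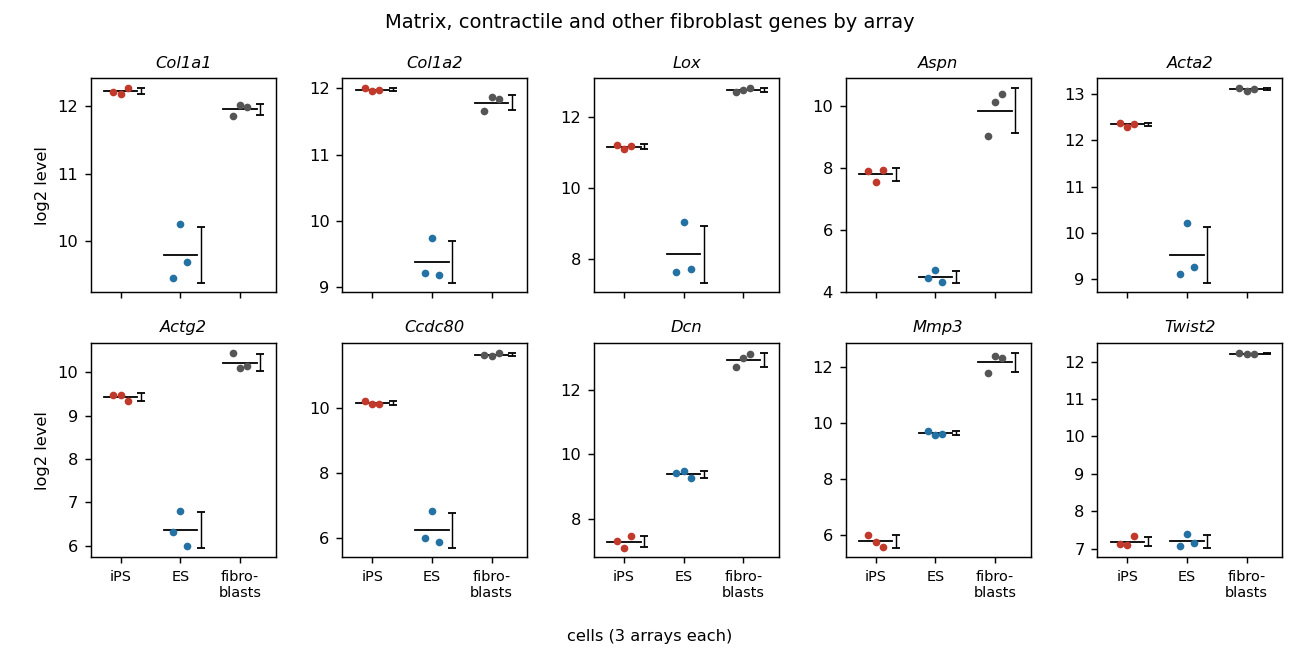
Log2 level of 10 genes on each array (points), with the mean (horizontal line) and SD (bar at the right) of 3 arrays, in iPS cells (red), R1 ES cells (blue) and fibroblasts (grey); each panel has its own axis range. Col1a1 and Col1a2 are at the fibroblast level in iPS cells, Dcn and Mmp3 are lower in iPS than in ES cells, and Twist2 is low in both lines.

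Set against the fibroblast arrays on the linear scale, these genes were not present in 1 proportion. Col1a1 in iPS cells was at 120% of its mean fibroblast level, Col1a2 at 114%, Ogn at 102% and Cthrc1 at 164%, while Acta2 was at 59%, Lox at 33.3%, Aspn at 22.5%, Postn at 12.9%, Thy1 at 9.97%, Twist2 at 3.08%, Dcn at 2.03% and Mmp3 at 1.18%. In ES cells Col1a1 was at 23%, Lox at 4.54%, Acta2 at 8.87%, Twist2 at 3.12%, Dcn at 8.58% and Mmp3 at 17.1%. Over the 48 matrix genes the median was 30.3% in iPS cells and 12.3% in ES cells. The fibroblast arrays are not the feeders, whose RNA was not among the arrays. Of the 12 fibroblast and feeder markers 4 were higher in iPS cells and 1 was lower, and all 6 smooth muscle and myofibroblast markers were higher, with summed levels of 9161 to 9454 against 1227 to 2300 in ES cells. The part of feeder cells in these differences was not tested, and more cells of a type cannot be told apart from more RNA per cell.

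**Figure D5:**
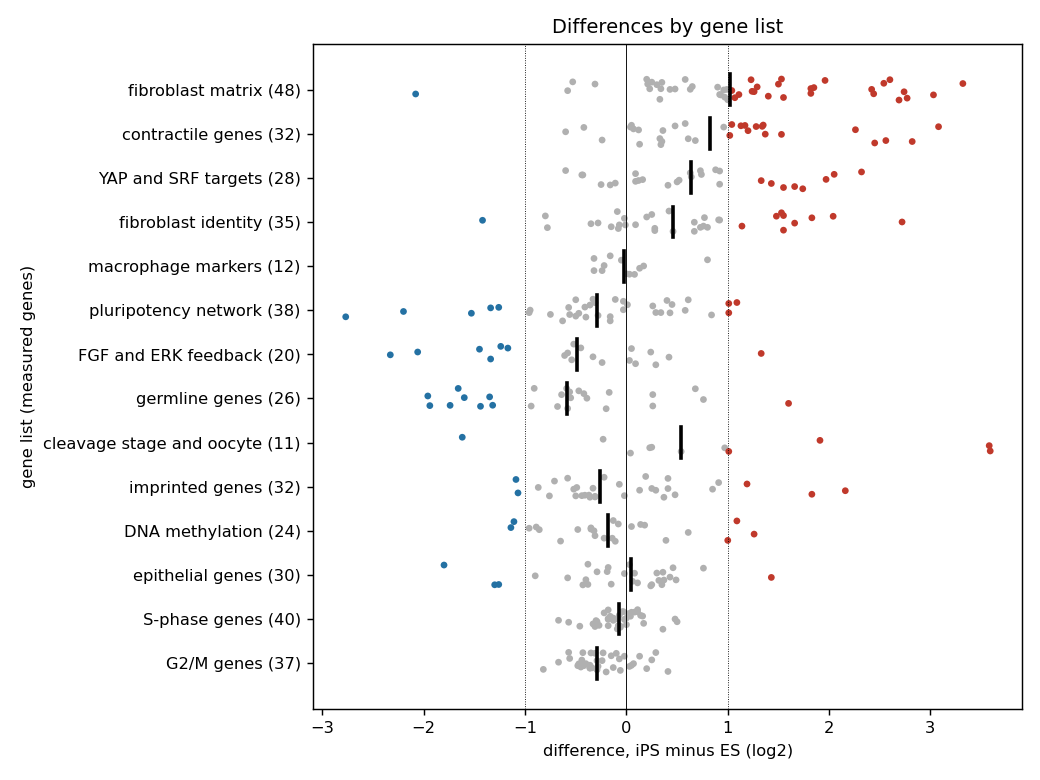
Difference, iPS minus ES, on the log2 scale for the measured genes of 14 lists; each point is a gene, the black bar is the median, red is called higher, blue is called lower, grey is not called, and dotted lines mark the 2-fold minimum. Matrix and contractile genes extend to the right, germline and FGF genes to the left, and cell cycle genes stay within 2-fold.

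Several lists had few or no calls, to be read beside 4.44% of all genes called higher and 2.45% called lower. Counts at an unadjusted p under 0.05 are to be read beside the 57.7% of all genes at an adjusted p under 0.05. Among 40 genes of S phase and 37 of G2 and M phase, limma called 0, with 12 and 26 at an unadjusted p under 0.05 and medians of -0.07 and -0.29, and for all 77 genes the 95% interval lay within 2-fold. Of 12 macrophage markers 0 were called by limma and 1 had an unadjusted p under 0.05. Of 16 regulators of the epithelial to mesenchymal transition 0 were called, 12 had an unadjusted p under 0.05 and the median was 0.45. Epithelial genes had 3 of 30 lower, the splicing factor Esrp1 (-1.80 ± 0.11) and the transcription factors Grhl3 (-1.30) and Grhl2 (-1.26), and 1 higher, Cldn4 (1.43), while the adhesion genes Cdh1 (0.03) and Epcam (-0.18) were not called. Of 29 Hox genes and cofactors, the cofactor Meis2 (1.56) was the single call. Of 28 interferon and antigen presentation genes 2 were higher, B2m (1.28) and Ifi202b (1.67).

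Signalling and metabolic lists held a few calls each. Their counts are to be read beside 4.44% of all genes called higher and 2.45% called lower. In the Wnt list 3 of 29 were higher, with the secreted inhibitor Sfrp1 at 1.78, and 3 lower, with the nuclear effector Lef1 at -1.61 ± 0.13. In the retinoic acid list 2 of 11 were lower and 2 were higher. The receptor Rarg differed by -1.90 ± 0.07 and the binding protein Crabp1 by -1.09. Aldh1a2, which makes retinoic acid, was higher by 1.23 and Cdx1, which is also in the Wnt list, by 1.17. Cyp1b1 (2.10 ± 0.11) led the 3 higher genes of 29 in the detoxification list. Of 17 genes of the amino acid stress response 3 were higher, Nupr1 (1.73), Pck2 (1.42) and Vldlr (1.10). Of the sex-linked markers, the Y-linked translation factor gene Eif2s3y was lower by 1.94 ± 0.12, while Kdm5d (0.54), Zfy1 (0.94) and Xist (0.13) were not called.

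The remaining genes at the extremes belong to no list. Baiap2l1, an organiser of actin at the cell membrane, had the smallest spread for its size: 10.38, 10.43 and 10.29 in iPS cells and 6.17, 6.12 and 6.10 in ES cells, a difference of 4.23 ± 0.07. The apolipoprotein gene Apoa2 was higher by 3.28 ± 0.11, Arl14epl by 2.62 ± 0.15 and Wls, which carries Wnt proteins to the cell surface, by 2.53 ± 0.23. On the lower side stood the intermediate filament gene Ina (-2.95 ± 0.11), the ectoenzyme Enpp3 (-2.69 ± 0.21), the adhesion gene Adam23 (-2.50 ± 0.07), the amino acid transporter Slc7a7 (-2.45 ± 0.14) and the iron exporter Slc40a1 (-2.40 ± 0.11). They were followed by the odorant receptor gene Olfr767 (-2.24 ± 0.34), the testis chaperone Clgn (-2.05 ± 0.13), the chromatin remodeller Chd9 (7.87 against 9.88 in ES cells) and the sodium-proton exchanger Slc9b1 (-1.98 ± 0.12). Slc9b1 formed a run of lower genes with its neighbours Slc9b2 (-1.16) and Bdh2 (-1.54). The higher runs were Serpinb1a, Serpinb6b and Serpinb9 (1.05 to 1.58) and Ctsc, Rab38 and Prss23 (1.20 to 2.36).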

How the data were processed

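Per the labels' protocols, biotin-labelled total RNA was measured on Affymetrix arrays of the whole-transcript kind. The values are log2 levels per probe set in the table that the authors deposited; the log2 scale was taken from their range, 2.43 to 13.64, and the summarisation, normalization and genome build are not given in the sources used here. Every probe set varied by at least 0.51 between its lowest and highest array, as a filter on variation would leave, so counts refer to varying genes, and list members outside the table were not analysed here. The platform annotation gave 1 gene symbol to 9542 of 10360 probe sets, several to 344 and none to 474. Where a gene had several probe sets (3 genes) the brightest was kept, and 9539 genes were tested. RefSeq's gene table (GRCm38.p6) matched 9533 identifiers and placed 9529 genes in order. The number of arrays limits the precision; the median SE was 0.09.

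Differences were fitted with limma 3.58.1 in R 4.3.3, with a mean for each of the 4 groups over 12 arrays, default eBayes and Benjamini-Hochberg adjustment; every adjusted p is limma's, two-sided. Fold differences are 2 to the power of the log2 difference. Linear sums and percentages use 2 to the power of each value. The script was tested on simulated data. Named genes are the 20 highest and 20 lowest called genes without overlap between the groups (gene models without a name left out), list members called or completing a count, 6 factors, and runs of at least 3 consecutive measured genes called one way. The members and lists were chosen with earlier results of these data known. Tables and plots were made with Python 3.11.15, pandas 2.3.3, numpy 2.4.6 and matplotlib 3.10.9. The alternatives were quantile normalization, centred arrays, omission of the dimmest 25% of genes, the mean of probe sets, a fit of iPS and ES arrays alone, array weights, a robust prior with a trend, limma's treat, no minimum of the fold, the replicate number as a block, and each array left out in turn.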

Additional observations from a re-analysis of the deposited data

How the results depend on the processing

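Most counts stayed within 1.5 times their value above, and 0 named or listed genes changed sign when called. With no fold minimum the counts of genes called, higher and lower were 5502, 2858 and 2644, with 540 called list members and 624 of the named and listed genes; with limma's treat they were 226, 154, 72, 73 and 94. In that order of settings, the matrix list had 41 and 15 higher, the contractile list 24 and 6, the germline list 18 and 5 lower, the pluripotency network 19 and 3, FGF feedback 10 and 3 and microRNA genes 55 and 2; the YAP and serum response factor list had 18 higher with no fold minimum. Without the dimmest 25% of genes 143 genes were lower, with 0 germline genes lower and 0 cleavage-stage genes higher, because those genes were no longer tested, and 1 microRNA gene was lower, against 23 after quantile normalization. The replicate block left 424 higher and 234 lower. Deviations of same-numbered arrays correlated at 0.05, -0.02 and -0.05, so the values showed no shift shared by number. Whether same-numbered arrays were processed together is not stated. Leaving out 1 array gave 384 to 487 genes higher and 223 to 254 lower. Of 185 called genes that are named or listed, 26 lost the call under at least 1 alternative other than treat. Without the dimmest 25% 48 of the 185 were not tested; of the 137 that were, 116 kept the call under every alternative except treat, and of the 48, 43 kept it under every other one. Leaving out 1 array ended calls of genes named above at differences of 0.87 for Osmr, 0.83 for Gadd45b and 0.99 for Tgfbi (ES replicate 3), -0.98 for Mir19b-1 (ES replicate 2) and -0.96 for Tcf15 (iPS replicate 2). It also ended those of Inhbb (-0.91 and -0.94 without iPS replicate 1 and ES replicate 2), Kmt2a (-0.99 without ES replicate 2, and lost without iPS replicate 2 too), Mir543 (-0.98 without iPS replicate 1 or ES replicate 1), Ooep (0.95 to 0.97, 3 arrays), Apobec2 (0.94 to 0.98, 4 arrays), Tfcp2l1 (0.93 to 1.00, 4 arrays) and Usp17lc (0.88 to 0.96, 4 arrays). The levels carry no detection calls, which limits dim genes.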

Other observations

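Of the 40 named genes at the extremes, 20 highest and 20 lowest, 4 encode ribosomal proteins. Of 49 measured genes whose symbol is Rpl or Rps followed by a digit, 2 were higher in iPS cells (4.08%, near the 4.44% of all genes). In the same set 6 were lower (12.2%, beside 2.45%), and the median difference was 0.02. The set was taken by symbol alone, so it holds the germline gene Rpl10l and may hold genes that encode no ribosomal protein. Rps13 measured 8.93, 9.51 and 9.52 in iPS cells and 3.58, 5.50 and 5.80 in ES cells, a difference of 4.36 ± 0.45. Rpl36 fell by 3.32 ± 0.38, with 5.98, 3.90 and 4.72 against 7.83, 8.60 and 8.15, and Rps3a1 (-2.13 ± 0.13) and Rpl13 (-2.07 ± 0.24) were lower. Rps13 and Rpl36 spread over more than 1 log2 unit within a line. These genes have many near-identical pseudogene copies, so which copy a probe set reads is uncertain.

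Some called genes set 1 line apart from the rest of the series. With a gap of at least 1 on the log2 scale, the ES arrays lay above the other 9 arrays in 64 of the 658 called genes and below them in 130. The iPS arrays lay above the other 9 in 49 and below in 16. These counts cover called genes alone, and the share among all genes was not computed. The ES cells are of another strain than the other 3 groups, and the fibroblast and day-1 arrays are of another cell type. The part of strain or cell type in these differences was not tested.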
